A study of Mus musculus with 24 samples.

Results

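The genes described here are complement components and regulators, a set of 7 mouse genes: C3, C2, C4b, Cfb, C1ra, Serping1 and Cd55. Their members were chosen by name, as every array probe annotated to one of these symbols. That gave 6 probes of the 25697 on the array, 1 each for 6 genes, and C3 is not analysed here. Illumina beadchips had been used to measure transcripts of the 3T3-L1 line, preadipocyte-like fibroblasts of mouse origin that convert to fat-storing adipocytes in culture. The labels give 8 time points with 3 replicates each, 24 arrays in all: day 0 (undifferentiated), days 2 and 4 (differentiating) and days 6, 8, 10, 14 and 18 (maturating). Every label, that of day 0 included, names a differentiation medium with insulin, the synthetic glucocorticoid dexamethasone, and IBMX, a phosphodiesterase blocker that makes cyclic AMP accumulate. From day 6 on the labels add a maturation medium with insulin, so medium and time changed together. The labels do not say whether day 0 preceded that medium. Nor do they say whether the replicates came from separate cultures, so p-values measure the spread between these samples, which may be technical. The model is a single clonal cell line, with no blood supply and no immune cells added according to the labels.

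Complement is a cascade of plasma proteins that tags targets and opens holes in their membranes. The classical pathway starts when C1q binds a target and its attached proteases, C1r and C1s, cleave C4 and then C2, whose fragments form an enzyme that cleaves C3. In the alternative pathway factor B, the product of Cfb, is cleaved by factor D and forms a second C3-cleaving enzyme. C1 inhibitor, the product of Serping1, blocks C1r and C1s, and CD55 on the cell surface takes both C3-cleaving enzymes apart. The liver makes most of the complement in plasma, and adipose tissue is known as a source of several components, factor D among them.

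Levels are normalized log2 intensities, where 1 unit is a 2-fold difference. Each array detected 45.5% to 48.8% of its probes (detection p, the share of negative controls at least as bright, under 0.05). The dimmest detected probe of an array stood between 4.75 and 4.91 in log2. A value below that range is background, not a level. Changes are log2 differences of day means ± SE of a limma fit over the 9558 genes with a probe detected on at least 3 arrays, n = 3 arrays per day, with a Benjamini-Hochberg adjusted p over all those genes and a call at 0.05. Of the 6 measured genes 5 passed this filter; C1ra did not. Of 7 adipocyte markers 2 were detected on day 0 and all 7 from day 4 on, and all 6 preadipocyte or fibroblast markers were detected on every array, so the labelled cell type carried its markers.

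Over the course all 5 tested members changed by the moderated F test (adjusted p between 7.89e-13 for Serping1 and 0.0081 for C2), beside 74.5% of all genes. C2, at the limit of detection, passed the filter through its brightest days, so its call is not independent of that filter. With a stricter detection filter C2 was not tested, and the count was 4. The members did not move together. C4b and Cfb, which supply the classical and alternative C3-cleaving enzymes, rose late and were highest on day 18. Serping1 and C2 were highest on day 0, and Serping1 came part of the way back by day 14. Cd55 was lowest on day 2 and highest on day 6. In these bulk samples fewer cells of a type and less RNA per cell cannot be told apart. The plot of all arrays by day shows these courses.

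**Figure D1:**
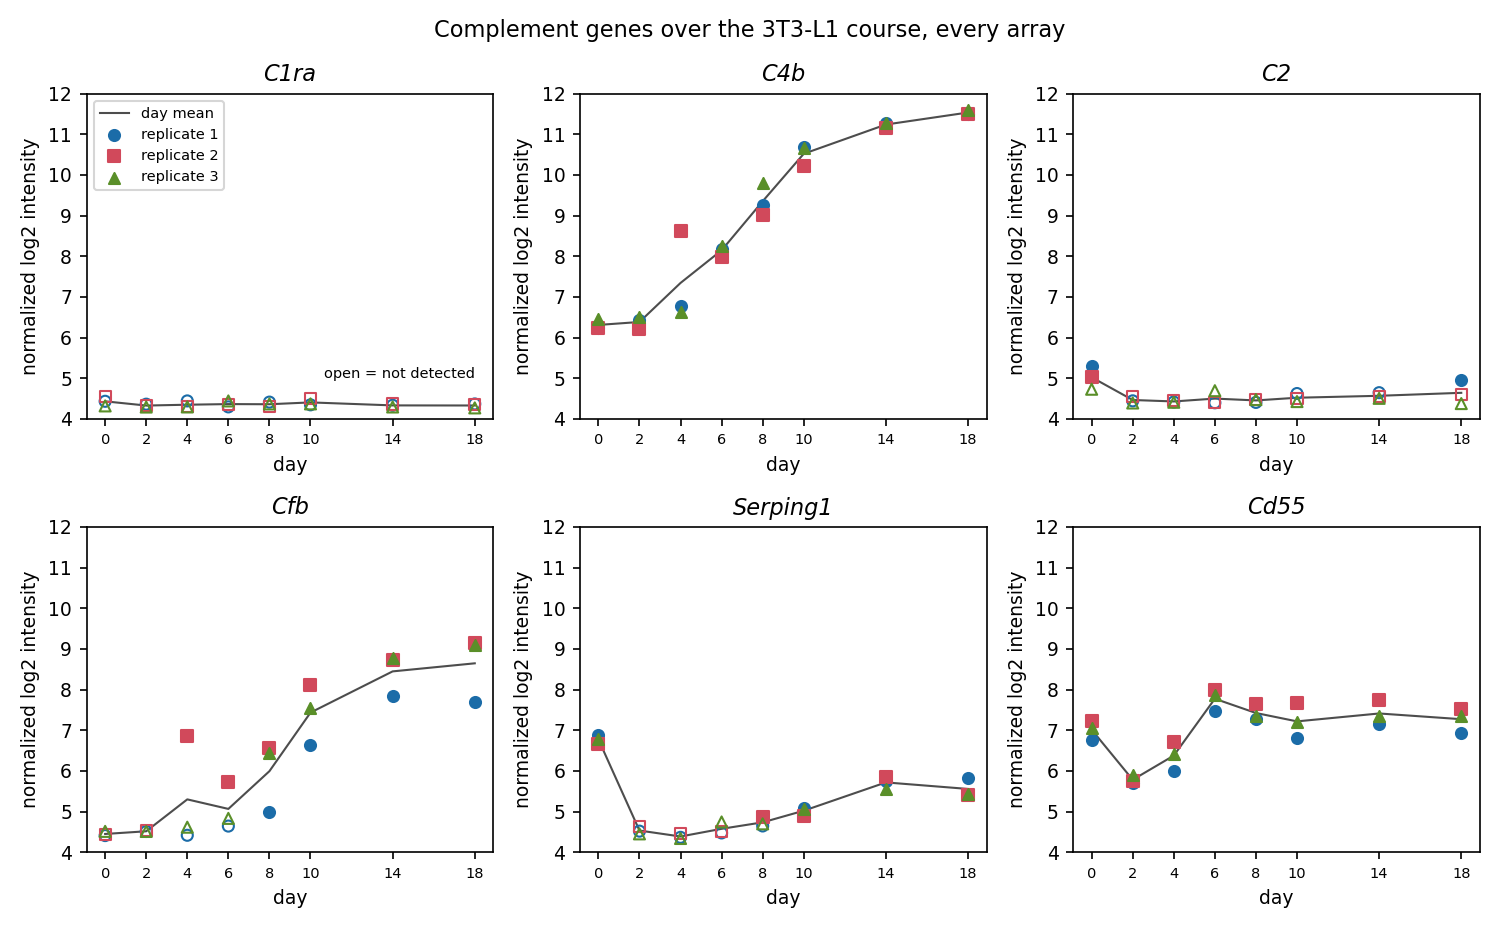
Normalized log2 intensity (vertical axis) of the 6 measured complement genes by day of the course (horizontal axis), 1 point per array, with the marker giving the replicate number, the line the day mean, and open points arrays on which the probe was not detected. C4b runs from a day mean of 6.31 to 11.53, Cfb leaves background from day 8 on, Serping1 drops from 6.78 into background by day 2, and C1ra stays in background on all 24 arrays.

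Of the initiating proteases, C1ra encodes a C1r, the first protease of the classical pathway. Its probe was detected on 0 of 24 arrays, with deposited intensities from 106 to 122 and log2 values from 4.27 to 4.54. The day means ran from 4.33 to 4.43, all below the lowest signal of a detected probe, so no fold between days is given. A mouse paralogue, C1rb, is not analysed here, and a probe at background does not show that the transcript is absent.

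C4b encodes complement component 4, the substrate of C1s and a part of the classical C3-cleaving enzyme. The C4b probe was detected on all 24 arrays. The 3 arrays of day 0 stood at 6.23, 6.23 and 6.46, and those of day 2 at 6.42, 6.22 and 6.50. Day 4 gave 6.78, 8.62 and 6.62, and day 6 gave 8.19, 7.99 and 8.26. The first pair of days overlapped, and on day 4 replicate 2 stood above all 3 arrays of day 6, while replicates 1 and 3 stayed near day 2. On day 8 the C4b values were 9.25, 9.01 and 9.79, and on day 10 they were 10.67, 10.22 and 10.66. On days 14 and 18 they were 11.28, 11.16 and 11.27, then 11.50, 11.50 and 11.59. From day 6 on no array of a later day lay below an array of the day before it.

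C4b was 37.4-fold higher on day 18 than on day 0 (5.22 ± 0.33, adjusted p = 2.43e-11), higher in 3 of 3 replicate numbers by 5.27, 5.27 and 5.13. Most of that came after day 6, with a rise of 3.39 ± 0.33 between day 6 and day 18 (adjusted p = 6.96e-08). In deposited intensity, before any normalization, the lowest array stood at 178 and the highest at 3138. Day 2 did not pass against day 0 (0.07 ± 0.33, adjusted p = 0.88). The rise between day 2 and day 4 (0.96 ± 0.33, adjusted p = 0.0231) rested on day 4 replicate 2, and without that array it was 0.32 (adjusted p = 0.16); without day 2 replicate 2 it did not pass either (adjusted p = 0.0733). Leaving out day 4 replicate 2 also moved the day 4 rise from day 0 from 1.03 ± 0.33 (adjusted p = 0.0098) to 0.40 (adjusted p = 0.0594), and the difference of day 6 from day 4 from 0.80 ± 0.33 (adjusted p = 0.0726) to 1.44 (adjusted p = 2.87e-06). The steps from day 6 to day 8 (1.21 ± 0.33, adjusted p = 0.0169) and from day 8 to day 10 (1.17 ± 0.33, adjusted p = 0.0497) passed by little: the first did not pass without day 6 replicate 2 (adjusted p = 0.0638) or day 8 replicate 3 (adjusted p = 0.101), and the second did not pass without any 1 of 5 of the 6 arrays, day 8 replicate 3 being the exception. The later steps, 0.72 ± 0.33 to day 14 and 0.30 ± 0.33 to day 18, did not pass (adjusted p = 0.358 and adjusted p = 1.00), although the 3 arrays of each later day lay above those of the earlier one. C4a, a near-identical copy annotated as a transcribed pseudogene in GRCm38.p6, had a probe that was detected on 0 arrays; whether the C4b probe also binds C4a transcripts was not tested.

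Cfb encodes factor B, which carries the protease of the alternative C3-cleaving enzyme. Its probe was undetected on all 3 arrays of day 0 (4.41, 4.43 and 4.52) and of day 2 (4.51, 4.53 and 4.51). On day 4 it was detected on replicate 2 alone, at 6.87, against 4.42 and 4.62 on the other day 4 arrays, and on day 6 again on replicate 2 alone, at 5.72, against 4.65 and 4.83. On days 4 and 6, then, Cfb was above background in replicate 2 and not in the other replicates. On day 8 all 3 arrays detected it, at 5.0, 6.56 and 6.43, and on day 10 they gave 6.64, 8.12 and 7.55. The last 2 days gave 7.85, 8.73 and 8.77, then 7.70, 9.14 and 9.10. Replicate 1 was the lowest Cfb array on 8 of 8 days and replicate 2 the highest on 6 of them. On days 0 and 2 that order was among undetected arrays, and on days 4 and 6 replicates 1 and 3 were both undetected. The order among undetected arrays is one of background values and not of levels.

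Against day 0, where it had only a bound, Cfb was at least 14.6-fold higher on day 18 (adjusted p = 1.49e-06). Here and below, "at least" sets the brighter day's mean against, on each array of the undetected day, the higher of the probe's own signal and the lowest signal of a detected probe. It was at least 12.7-fold higher on day 14 (adjusted p = 2.85e-06), at least 6.30-fold on day 10 (adjusted p = 9.87e-05) and at least 2.32-fold on day 8 (adjusted p = 0.0218). The day 8 call was lost without day 8 replicate 2 (adjusted p = 0.0949) or day 8 replicate 3 (adjusted p = 0.0833). With replicate number as a block it stayed (adjusted p = 0.000953). Between day 6 and day 18 Cfb rose by 3.58 ± 0.55 (adjusted p = 3.02e-05), by 3.06, 3.42 and 4.26 in the 3 replicate numbers. With replicate number as a block in the fit, the step from day 8 to day 10 (1.44 ± 0.55, adjusted p = 0.179) passed (adjusted p = 0.0163), and so did the difference of day 4 from day 0 (0.85 ± 0.55, adjusted p = 0.198 without the block and adjusted p = 0.0467 with it). The day 4 mean rests on 1 detected array: the difference of day 4 from day 2 was 0.78 ± 0.55 (adjusted p = 0.289), and without day 4 replicate 2 it was 0.0009 (adjusted p = 0.999).

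C2 encodes the protease of the classical C3-cleaving enzyme and is a paralogue of Cfb. Its probe was at the limit of detection throughout. Day 0 gave 5.30, 5.04 and 4.73, with 2 of 3 arrays detected, and day 18 gave 4.95, 4.59 and 4.38, with 1 detected. It was undetected on all arrays of the 6 days between, where day means ran from 4.43 to 4.57. With 3 detected arrays in all, C2 passed the filter at its minimum and through the days on which it was brightest, so that its being called is not independent of its being tested. The difference of day 2 from day 0 was -0.56 ± 0.13 (adjusted p = 0.00133), which as a bound is at least 1.15-fold lower. Day 18 differed from day 0 by -0.38 ± 0.13 (adjusted p = 0.0188), but its arrays overlapped those of day 0, and without day 0 replicate 1 it did not pass (-0.24, adjusted p = 0.139), nor without day 18 replicate 2 (adjusted p = 0.0554) or replicate 3 (adjusted p = 0.136). The call of day 14 against day 0 (-0.45 ± 0.13, adjusted p = 0.00609) was lost without day 0 replicate 1 (adjusted p = 0.055).

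Serping1 encodes C1 inhibitor, the serpin that blocks C1r and C1s. On day 0 its 3 arrays stood at 6.89, 6.66 and 6.78. The day 2 arrays gave 4.52, 4.63 and 4.45, those of day 4 gave 4.37, 4.46 and 4.34, and those of day 6 gave 4.48, 4.51 and 4.75, all 9 undetected. Day 0 was apart from every later array. On day 8 one array of 3 detected Serping1 (4.65, 4.86 and 4.70), and on day 10 all 3 did (5.10, 4.90 and 5.07). Day 14 gave 5.76, 5.85 and 5.55, and day 18 gave 5.83, 5.40 and 5.45. These last 6 arrays were all above those of day 10 and below those of day 0.

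The Serping1 mean dropped at least 3.89-fold by day 2 (adjusted p = 1.59e-12), and was lower in 3 of 3 replicate numbers. Between day 10 and day 14 it rose by 0.70 ± 0.11 (adjusted p = 0.00138), and day 18 was at least 1.60-fold above day 6 (adjusted p = 7.94e-07). Day 18 remained 2.33-fold below day 0 (-1.22 ± 0.11, adjusted p = 1.07e-08). Each of these day 2 and day 18 differences passed whichever of the 6 arrays was left out.

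Cd55 encodes decay-accelerating factor, a surface protein held by a lipid anchor that speeds the decay of the C3-cleaving enzymes. Its probe was detected on all 24 arrays. Day 0 gave 6.77, 7.22 and 7.05, day 2 gave 5.71, 5.75 and 5.89, and day 4 gave 5.99, 6.72 and 6.42. The 3 days did not overlap, with day 2 lowest. Day 6 gave 7.48, 7.99 and 7.86, day 8 gave 7.29, 7.64 and 7.35, and day 10 gave 6.80, 7.66 and 7.19. Day 14 gave 7.15, 7.75 and 7.35, and day 18 gave 6.94, 7.52 and 7.36. From day 8 on the days overlapped with one another, and replicate 1 was the lowest Cd55 array on 8 of 8 days and replicate 2 the highest on 7.

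Cd55 fell 2.35-fold between day 0 and day 2 (-1.23 ± 0.22, adjusted p = 7.69e-05) and rose 2.64-fold between day 4 and day 6 (1.40 ± 0.22, adjusted p = 5.08e-05), by 1.48, 1.27 and 1.44 in the 3 replicate numbers. The smaller step from day 2 to day 4 (0.59 ± 0.22, adjusted p = 0.0361) did not pass without any 1 of 5 of the 6 arrays, day 4 replicate 1 being the exception, with a lowest value of 0.42 without day 4 replicate 2 (adjusted p = 0.176). Day 4 differed from day 0 by -0.64 ± 0.22 (adjusted p = 0.017), a call lost without day 4 replicate 1 (adjusted p = 0.11) or day 0 replicate 2 (adjusted p = 0.0752). Within replicate numbers the step from day 2 to day 4 was upward in 3 of 3 (0.28, 0.97 and 0.53). Both calls stayed with replicate number as a block (adjusted p = 0.00011 against day 2 and adjusted p = 2.82e-05 against day 0). Day 6 was above day 0 by 0.76 ± 0.22 (adjusted p = 0.0052). Day 18 stood 0.26 ± 0.22 above day 0 (adjusted p = 0.341) and its difference from day 6 was -0.50 ± 0.22 (adjusted p = 0.084). With replicate number as a block both day 18 differences of Cd55 passed (adjusted p = 0.0436 and adjusted p = 0.000714). So did day 8 and day 14 against day 0 (0.41 and 0.40, adjusted p = 0.0024 and adjusted p = 0.00311) and day 8 against day 6 (-0.35, adjusted p = 0.0246). Without day 6 replicate 1 the difference of day 18 from day 6 was -0.65 (adjusted p = 0.0452). Cd55b, a second mouse copy, was detected on 1 of 24 arrays, and whether the Cd55 probe binds its transcript was not tested.

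**Figure D2:**
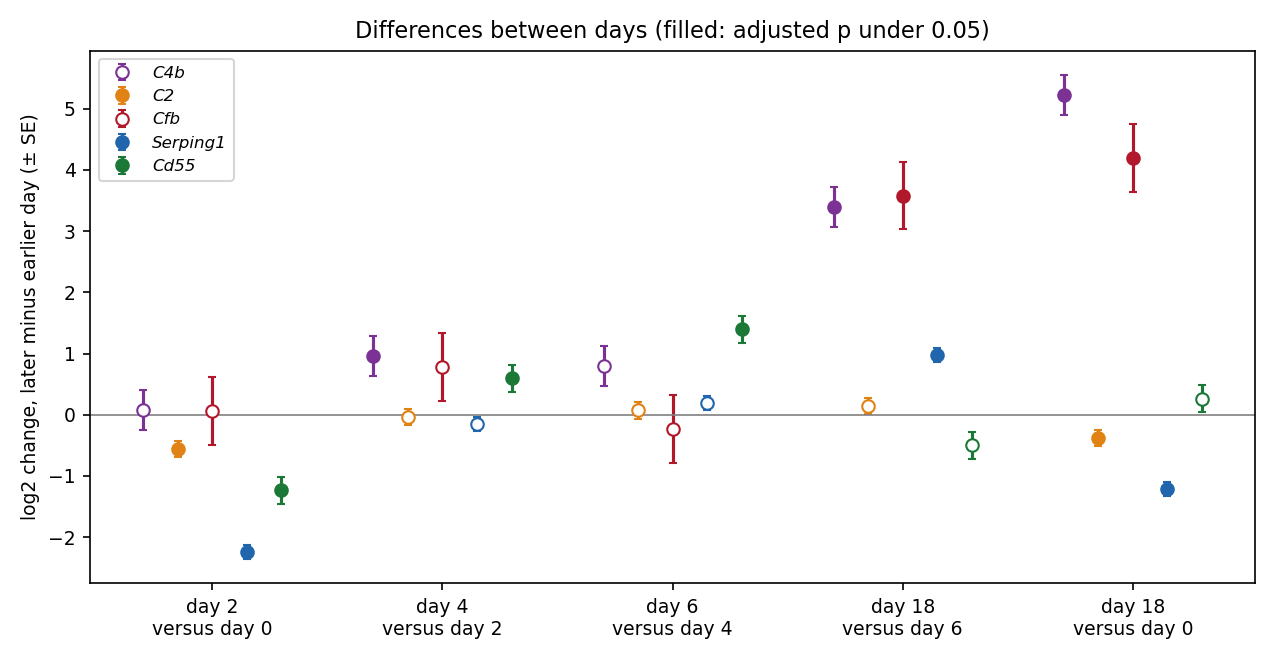
Log2 change between days (vertical axis, later minus earlier day, ± SE of the limma fit, n = 3 arrays per day) of the 5 tested members in 5 comparisons (horizontal axis); filled points passed at an adjusted p under 0.05. Serping1 and Cd55 lie lowest for day 2 versus day 0, at -2.24 and -1.23, and C4b and Cfb highest for day 18 versus day 0, at 5.22 and 4.20; where a day was undetected (Cfb on days 0 and 2, Serping1 on days 2 to 6, C2 on days 2 to 14) the fitted value reaches into background and the bound in the text applies.

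Counted over the 5 tested members, 3 were lower on day 2 than on day 0 (C2, Serping1 and Cd55) beside 26.5% of all genes lower, and neither C4b nor Cfb passed. C2 entered this count, and those against day 0 below, only through a filter that its day 0 arrays helped it to pass, so without C2 the count is 2 of 4. Between day 2 and day 4 C4b and Cd55 were higher (background 18.7% higher), and between day 4 and day 6 Cd55 (background 15.3%). Between day 6 and day 18 C4b, Cfb and Serping1 were higher (background 18%). Between day 0 and day 18, C4b and Cfb were higher (background 23.2%) and C2 and Serping1 lower (background 34%). C2 and Serping1 were lower than on day 0 on every other day too, with Cd55 joining them on day 4 (backgrounds of 31.2%, 33.1%, 32.6%, 32.4% and 32.8% for days 4, 6, 8, 10 and 14). C4b was higher than on day 0 from day 4 on (background 28.9% on day 4), with Cd55 on day 6 (27.6%) and with Cfb on days 8, 10 and 14 (24.9%, 24.1% and 23.3%). Of the single steps after day 6, C4b rose from day 6 to day 8 (background 7.54%) and from day 8 to day 10 (2.36%), and Serping1 from day 10 to day 14 (1.13%). The median over the 5 members was the value of Cd55 for day 4 versus day 2 (0.59, against -0.02 over all genes) and for day 18 versus day 0 (0.26, against -0.08). In the comparisons of day 2 with day 0, of day 6 with day 4 and of day 18 with day 6 it was a fitted value of C2 or Serping1 with 1 or both days undetected (-0.56, 0.19 and 0.98, against 0.02, -0.01 and -0.03), and so is no measured level of change. With 5 genes in the count these shares describe the members and are not set against the background by a test.

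In the order of their day means, neighbouring days of C4b overlapped between day 6 and day 4 and between day 2 and day 0 and nowhere else. For Serping1, day 0 was apart from the next-highest day 14, days 14 and 18 overlapped, and days 8, 6, 2 and 4 overlapped in turn. For Cfb, days 18, 14 and 10 overlapped in turn and were apart from day 8. For C2 every pair of neighbouring days overlapped.

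Summed over the 7 adipocyte markers, normalized intensity on the linear scale ran from 770 to 901 on day 0, from 24400 to 28042 on day 4 and from 36636 to 40916 on day 6, and on day 18 from 30379 to 37376, overlapping. That sum leans on the brightest markers. Between day 6 and day 18 the mean of Cidec fell from 13.76 to 12.82, and that of Slc2a4 from 9.80 to 9.75. The means of Adipoq (13.98 and 14.09) and Plin1 (8.99 and 9.27) rose, as did those of Pparg, Lipe and Fabp4. The 6 preadipocyte or fibroblast markers summed to between 32216 and 35723 on day 0, 11159 and 12260 on day 2, 3516 and 4104 on day 4 and 11791 and 13419 on day 14. The sums of day 2 and day 14 overlapped, but this sum too leans on its brightest markers, which did not move alike. From day 2 to day 14 the means of Lum (7.49 and 10.21), Col1a1 (10.46 and 11.56), Col1a2 (8.34 and 9.34) and Thy1 (10.58 and 10.61) were higher. Those of Pdgfra (11.52 and 10.48) and Dlk1 (12.37 and 12.26) were lower. Of 7 macrophage or monocyte markers with a probe, Ptprc, Adgre1, Itgam, Fcgr1 and Mrc1 were detected on no array. Cd14 was detected on every array, and Lyz2 on the 9 arrays of days 0, 14 and 18, with day means of 5.38 on day 0, 4.29 on day 2 and 5.37 on day 18. That list summed to 240 to 260 on day 0, 152 to 161 on day 4 and 261 to 263 on day 18. None of 4 endothelial markers was detected on any array, nor were 3 of 4 liver cell markers (Alb, Ttr and Serpina1a), while Apoa1 was detected on 4 arrays, with a day 6 mean of 4.99. The part of the preadipocyte markers and of Cd14 and Lyz2 in the course of Serping1 was not tested.

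**Figure D3:**
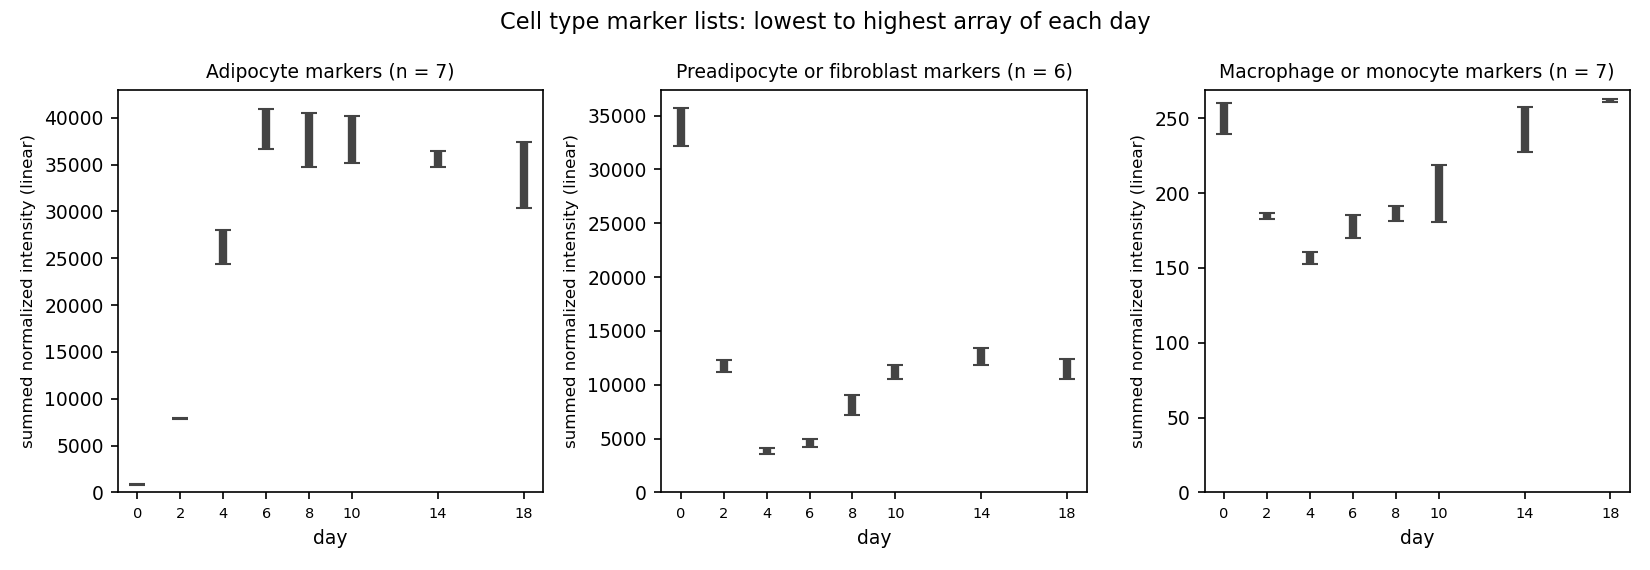
Summed normalized intensity on a linear scale (vertical axis, starting at 0) of 3 marker lists by day (horizontal axis); each bar runs from the lowest to the highest of the 3 arrays of a day. The adipocyte list is near its highest by day 6, and the preadipocyte or fibroblast list falls until day 4 and comes back in part by day 14.

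Beyond the members, a list of 43 other complement genes was drawn from general knowledge, with results of these data known. Of these, 37 had a probe, 19 were detected on no array, 5 on 1 or 2 arrays, and 13 were tested. Undetected genes included the C1q chain genes C1qb and C1qc, the lectin pathway genes Masp1, Mbl1, Mbl2, Fcna and Fcnb, the late components Hc (C5) and C6, and the receptors C3ar1, C5ar1 and C5ar2. Of the 13 tested, 1 was higher (background 25%) and 7 lower (26.5%) on day 2 than on day 0. On day 4, 6 were higher (18.7%) and 2 lower (22.7%) than on day 2. On day 6, 7 were higher than on day 4 (15.3%) and 0 lower by limma (background 14%; and 0 at an unadjusted p under 0.05). Between day 6 and day 18, 6 were higher (18%) and 2 lower (18.5%), and between day 0 and day 18 again 6 were higher (23.2%) and 2 lower (34%). Their median change on day 2 was -0.59 against 0.02 over all genes. Some calls in these counts were weak. With 1 array left out, C1s1 on day 6 against day 4 (0.46 ± 0.16, adjusted p = 0.0306) passed in 2 of 6 fits. It also failed without background correction (adjusted p = 0.168) and with an offset of 50 (adjusted p = 0.0892). Cd59a on day 4 against day 2 and Cd59b on day 18 against day 0 each passed in 3 of 6 fits.

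The classical pathway protease gene C1s1, partner of C1r, followed Serping1. It stood at 7.57 ± 0.18 (SD, n = 3) on day 0, 5.48 ± 0.04 on day 2, 4.98 ± 0.23 on day 4 and 6.26 ± 0.09 on day 18. C1s1 fell by 2.09 ± 0.16 by day 2 (adjusted p = 4.98e-10), and its second probe gave -2.23 ± 0.20. Its difference of day 4 from day 2, -0.51 ± 0.16 (adjusted p = 0.0125), was lost without day 4 replicate 3 (-0.40, adjusted p = 0.0731) and did not pass at the second probe (-0.15 ± 0.20). By day 18 C1s1 had risen by 0.82 ± 0.16 from day 6 (adjusted p = 0.000263). C1rl, a C1r-like protease gene, differed from day 0 by -0.97 ± 0.16 on day 2 and by 1.46 ± 0.16 on day 18 (adjusted p = 2.91e-05 and adjusted p = 1.09e-07), and a second probe gave -1.01 ± 0.13 and 1.33 ± 0.13. Masp2, a protease of the lectin pathway, was the 1 gene of the 13 higher on day 2 (1.24 ± 0.15, adjusted p = 3.78e-07), and fell by 0.82 ± 0.15 from day 6 to day 18 (adjusted p = 0.000137). A second Masp2 probe gave 0.41 ± 0.16 and -0.20 ± 0.16 for the same comparisons (adjusted p = 0.0378 and adjusted p = 0.371), and a further Masp2 probe was detected on 0 arrays, with day means from 4.29 to 4.35. Colec12, a scavenger receptor with a collectin domain, dropped at least 1.83-fold by day 2 (adjusted p = 2.02e-05), and at least 1.52-fold at a second probe (adjusted p = 0.00731). Day 18 differed from day 0 by -0.74 ± 0.17 (adjusted p = 0.00107), but the second Colec12 probe did not pass (-0.64 ± 0.27, adjusted p = 0.0533).

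Among the other regulators, Clu, which encodes clusterin, an inhibitor of the membrane attack complex, stood at 8.86 ± 0.17 on day 0, 6.51 ± 0.09 on day 2 and 5.83 ± 0.65 on day 4, and at 9.51 ± 0.09 on day 18. It fell by 2.35 ± 0.20 by day 2 (adjusted p = 2.68e-09), rose by 1.72 ± 0.20 from day 4 to day 6 and by 1.96 ± 0.20 from day 6 to day 18 (adjusted p = 9.05e-07 and adjusted p = 1.02e-07), and passed its day 0 level by 0.65 ± 0.20 (adjusted p = 0.00708). Its fall from day 2 to day 4 (-0.68 ± 0.20, adjusted p = 0.00771) did not pass without day 4 replicate 3 (-0.36, adjusted p = 0.0635). Cd59a and Cd59b encode lipid-anchored blockers of the membrane attack complex. They fell by 1.16 ± 0.11 and 1.13 ± 0.13 by day 2 (adjusted p = 1.07e-08 and adjusted p = 1.96e-07) and rose by 0.43 ± 0.11 and 0.50 ± 0.13 from day 4 to day 6 (adjusted p = 0.00398 and adjusted p = 0.00459), the directions of Cd55 in those comparisons. From day 6 to day 18 they rose by a further 0.32 ± 0.11 and 0.45 ± 0.13 (adjusted p = 0.0235 and adjusted p = 0.00739), where the difference of Cd55 was -0.50 ± 0.22. Without each of 4 of the 6 arrays in turn the Cd59a call of day 18 against day 6 was lost (day 6 replicates 2 and 3 and day 18 replicates 1 and 2, with adjusted p up to 0.0958), and without day 6 replicate 1 that of Cd59b was (adjusted p = 0.0553). With replicate number as a block both calls stayed (adjusted p = 0.00172 and adjusted p = 0.000274). A second Cd59b probe did not pass the detection filter. Cr1l, which encodes Crry, a rodent surface regulator of C3 and C4 cleavage products, did not pass on day 2 (0.11 ± 0.08, adjusted p = 0.276). It rose by 0.56 ± 0.08 by day 4 and by a further 0.60 ± 0.08 by day 6 (adjusted p = 9.28e-06 and adjusted p = 6.67e-06), and a second probe gave 0.51 ± 0.10 and 0.48 ± 0.10. Day 18 differed from day 6 by -0.29 ± 0.08 (adjusted p = 0.00781), and the second Cr1l probe gave -0.38 ± 0.10. From day 0 to day 18 Cr1l rose by 0.99 ± 0.08 (adjusted p = 1.32e-09).

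Of the components of the membrane attack complex, C8g fell by 0.59 ± 0.10 from day 0 to day 2 (adjusted p = 4.17e-05) and 1.00 ± 0.10 higher on day 6 than on day 4 (adjusted p = 1.87e-07). C8b was 0.61 ± 0.11 higher on day 18 than on day 0 (adjusted p = 8.55e-05). C8a was 0.40 ± 0.14 higher on day 4 than on day 2 (adjusted p = 0.0286), as a bound at least 1.09-fold, a call lost without any 1 of 4 arrays: day 4 replicate 1 (adjusted p = 0.053), day 4 replicate 3 (adjusted p = 0.163), day 2 replicate 2 (adjusted p = 0.0613) and day 2 replicate 3 (adjusted p = 0.101). Cfi, the factor I protease gene, and Cd93 passed in none of the 5 comparisons. By the moderated F test over the course C8a, Cfi and Cd93 did not pass (adjusted p = 0.186, adjusted p = 0.301 and adjusted p = 0.178). The map of day means shows the 18 tested genes.

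**Figure D4:**
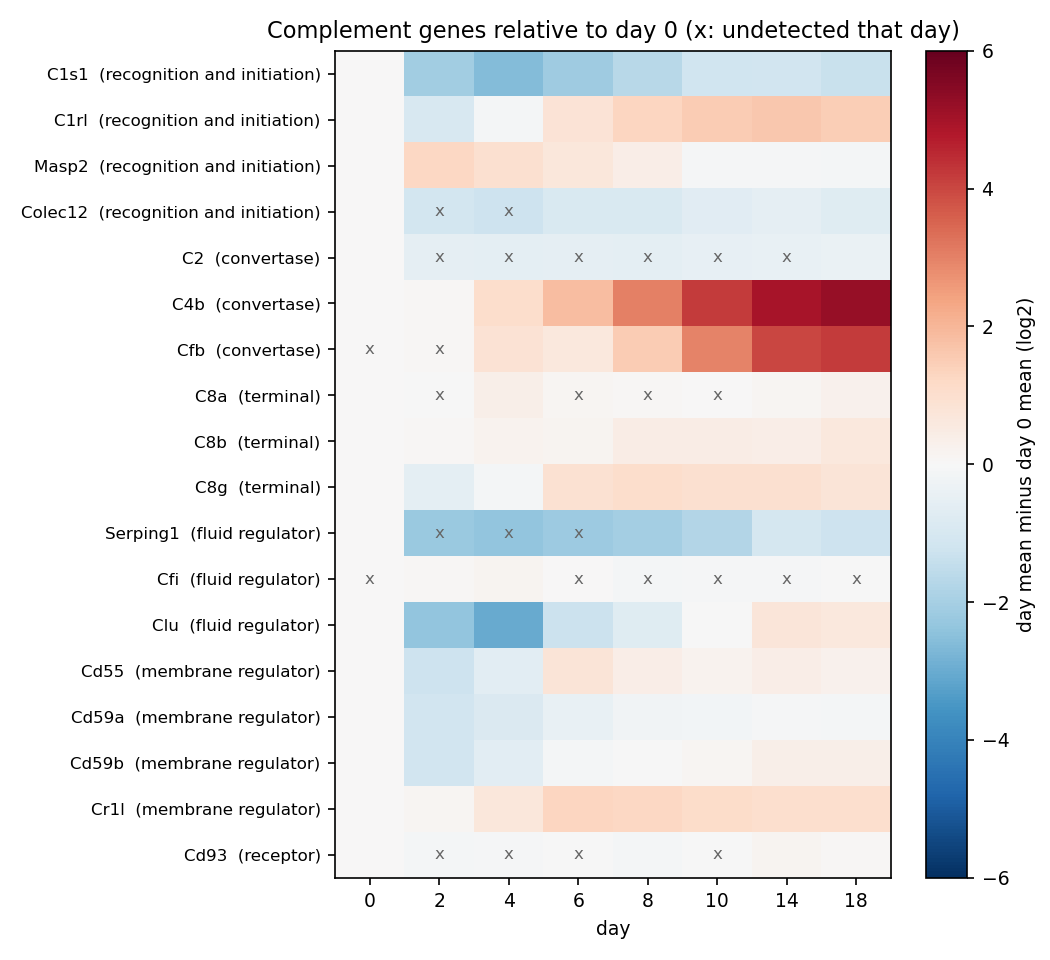
Day mean minus day 0 mean on the log2 scale (colour) for the 18 tested complement genes (rows, with their role) by day (columns); x marks a day on which the probe was undetected on all 3 arrays. C4b and Cfb darken to the right, up to 5.22 and 4.20, while C1s1, Serping1 and Clu are below day 0 on days 2 and 4.

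The promoters of Cd55, Cd59a and Cd59b are shown because these lipid-anchored surface regulators all fell from day 0 to day 2 and rose from day 4 to day 6. The Cd55, Cd59a and Cd59b sequences each hold the window from 250 bases before to 50 bases after the annotated start, from RefSeq on GRCm38.p6, read 5′ to 3′ on the gene's strand, which is chr1:130462695-130462994 (minus strand) for Cd55, chr2:104095551-104095850 (plus strand) for Cd59a and chr2:104070816-104071115 (plus strand) for Cd59b. Of the 7 listed genes, C3, C1ra and Cd55 had a window there. Capitals mark letters that match one of the motifs below on either strand.
Cd55: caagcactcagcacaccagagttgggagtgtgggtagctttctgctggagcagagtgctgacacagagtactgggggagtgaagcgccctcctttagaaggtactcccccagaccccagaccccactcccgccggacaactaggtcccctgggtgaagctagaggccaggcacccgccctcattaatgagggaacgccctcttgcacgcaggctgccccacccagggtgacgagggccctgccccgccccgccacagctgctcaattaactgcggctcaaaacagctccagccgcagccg
Cd59a: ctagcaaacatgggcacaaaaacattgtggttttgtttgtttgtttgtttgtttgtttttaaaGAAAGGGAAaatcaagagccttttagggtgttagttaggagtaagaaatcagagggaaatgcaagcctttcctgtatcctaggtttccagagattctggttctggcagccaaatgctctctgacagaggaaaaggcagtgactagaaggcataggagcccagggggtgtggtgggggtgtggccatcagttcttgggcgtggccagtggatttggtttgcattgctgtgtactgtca
Cd59b: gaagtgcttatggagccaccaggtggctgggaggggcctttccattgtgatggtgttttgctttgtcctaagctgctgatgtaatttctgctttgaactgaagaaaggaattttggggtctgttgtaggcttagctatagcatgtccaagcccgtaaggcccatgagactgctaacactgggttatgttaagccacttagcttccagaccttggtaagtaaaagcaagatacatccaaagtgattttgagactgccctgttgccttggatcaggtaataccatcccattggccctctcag
The motifs searched, on both strands, were GAAANNGAA for the interferon-stimulated response element, TTCNNNGAA for the gamma-activated site, TTGCNNAA for the C/EBP site and the NF-kappa-B consensus site. They occur in 8.56%, 8.3%, 10.8% and 4.51% of the 32851 windows of the table, and the first of them can overlap the second. The window of Cd59a held 1 match, to the interferon-stimulated response element, and those of Cd55 and Cd59b held 0 of these motifs. Another NF-kappa-B pattern, searched first, was about as common (4.79% of all windows beside 4.51%). It matched letters in Cd55 and Cd59b and not in Cd59a, so matches to this site depend on the pattern chosen. These are matches of letters and show neither binding nor its absence.

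Genes most like each member were taken as the 3 with the highest Pearson correlation over the 8 day means, among 3901 genes outside the complement list that changed and spanned at least 1 log2 unit; arrays of a day share their culture conditions, so this is a description. For C4b they were Cd36 (r = 0.998), the fatty acid translocase gene, Mfng (r = 0.996) and the proton pump subunit gene Atp6v0e2 (r = 0.994). For Cfb they were Trpv1 (0.993), an ion channel gene, Fmo5 (0.992) and Lrrc14b (0.989). For Serping1 they were Glmp (0.994), Abca9 (0.993) and Glt8d2 (0.990), each highest on day 0. For Cd55 they were Dtx4 (0.988), Smarcc2 (0.976) and Pacsin3 (0.974), each lowest on day 2 and highest on day 6. For C2, whose day means lie mostly in background, they were Fsd1 (0.985), Tm4sf1 (0.984) and Ncald (0.984). Among the members, C4b and Cfb correlated at 0.972 over the 8 day means, and C2 and Serping1 at 0.939, while C4b and Serping1 stood at 0.081. C2 was undetected on days 2 to 14 and Serping1 on days 2 to 6, so most points behind the value of C2 and Serping1 include background.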

How the data were processed

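Biotinylated cRNA from total RNA of 24 samples had been hybridised to Illumina beadchips, per the labels' protocols, and GenomeStudio 2011.1 is named in the submitters' processing notes without its role. The authors deposited probe intensity on a linear scale, neither background-subtracted nor normalized, with a detection p-value beside each intensity, in steps of 1 in 798, per the file headers. The second deposited table holds intensity below 0 in places, so background-subtracted, and normalized in a way that neither labels nor headers state; it was tried as an alternative.

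From the first table, neqc of limma 3.58.1 in R 4.3.3 corrected background, normalized by quantiles and took log2 (offset 16), so that differences reaching into background are compressed. The filter kept 14160 probes, those detected (p under 0.05) by 3 arrays or more, and each gene was read from its brightest probe (9558 genes). Of 25697 probes 23978 carried 1 symbol, 0 several and 1719 none; 23962 matched the RefSeq table of GRCm38.p6, used for names, chromosomes and promoters. A limma fit of 8 day means (16 residual degrees of freedom) gave the moderated F test and the contrasts between days. The number of arrays limits the precision. Simulated data with 200 changed genes, in 3 draws over the 9558 genes for day 2 versus day 0, gave calls in the right direction for 56.5% of those changed by 0.5 log2 units, 93% of those changed by 1 and 98% of those changed by 2, and calls for 0.118% of unchanged ones.

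Replicate numbers 1 to 3 recur on every day. Deviations from the day means of same-numbered arrays correlated in all 84 pairs, from 0.251 to 0.762 with a median of 0.528, so the numbers pair the arrays. This comes from the data, since no label says what a number marks. The 168 pairs of different numbers had a median of -0.39. Deviations from a day mean cancel within the day, so that negative value follows from the positive ones and is no separate support. The block on replicate number was an alternative, and its values stand beside results whose call it changed and beside a few whose call it kept. Other alternatives were no background correction, an offset of 50, the deposited normalized table, no and a stricter detection filter, all probes, and leaving out each array of the days compared. The members and lists were chosen with earlier results of these data known. Named genes are all members, every tested gene of the complement list, the 3 genes most like each member and the fixed cell type markers.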

Additional observations from a re-analysis of the deposited data

How the results depend on the processing

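The count of the 5 tested members that changed over the course, and the counts called on day 2 against day 0 and on day 18 against either day 6 or day 0, stayed within 1.5 times under every alternative tried. With replicate number as a block 4 members in place of 3 passed for day 18 versus day 6 and 5 in place of 4 for day 18 versus day 0, Cd55 being the addition both times; the block took away no call of a member in the 14 comparisons. Between day 2 and day 4 the count of 2 became 0 without background correction, 1 with an offset of 50 and 1 with no detection filter, and ranged from 0 to 2 when 1 array was left out. Between day 4 and day 6 the count of 1 ranged from 1 to 2 when 1 array was left out, with C4b added without day 4 replicate 2. The causes were not tested. For C4b from day 8 to day 10 the deposited normalized table, no detection filter and all probes each lost the call, and for Cfb on day 8 versus day 0 no background correction and the offset of 50 did. No called change of a member or other complement gene turned its direction under any alternative run. C2 was not tested under the stricter detection filter. Signals of C1ra on all days, of C2 on 6 days and of Serping1 on days 2 to 6 are limited by background.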

Other observations

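C4b, Cfb and C2 lie close together on chromosome 17 in GRCm38.p6, with C4a, Cyp21a1, Stk19, Dxo, Skiv2l and Nelfe among the genes between C4b and Cfb, and C2 on the far side of Cfb. These neighbours were looked at after the values of the members had been seen. Between day 0 and day 18, where C4b changed by 5.22 ± 0.33 on the log2 scale and Cfb, undetected on day 0, was at least 14.6-fold higher, Stk19 differed by 0.23 ± 0.15 (adjusted p = 0.218), Dxo by 0.11 ± 0.07 (adjusted p = 0.206), Skiv2l by -0.05 ± 0.16 (adjusted p = 0.831) and Nelfe by -0.04 ± 0.09 (adjusted p = 0.75). Cyp21a1 and C4a had no probe that passed the detection filter.

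Within days, the deviations of Cfb and Cd55 from their day means correlated at 0.773 over the 24 arrays and those of C4b and Cfb at 0.51. Arrays that share a replicate number are not independent, and Cfb was detected on 14 of these arrays, so these are descriptions. The C4b and Cfb value leans on day 4 replicate 2, at 8.62 in C4b and 6.87 in Cfb, and was not computed without that array. On days 6, 8 and 10 replicate 2 was the lowest C4b array and the highest Cfb array. Day 4 replicate 2 was above both other day 4 arrays in C4b, Cfb, Cd55, C1s1 and Clu. The share of the other tested complement genes, or of all genes, for which this held was not counted. Replicate 2 was the highest Cd55 array on 7 of 8 days and the highest Cfb array on 6, undetected days included, so for these genes this order was not particular to day 4. For C4b it was: replicate 2 was the highest C4b array on 1 of 8 days, day 4, and the lowest on 5.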
